A study of Homo sapiens with 4 samples.

Results

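The expression of 33 genes of the TCA cycle and of the pyruvate, glutamine and 2-oxoglutarate reactions that feed it was examined in LNCaP cells treated with CPI-455. The genes were taken by name from a list of enzymes, enzyme complex subunits and transporters, by a rule that reads no measured value, although the list was drawn up with earlier results of these data known. All 33 were found among the 60675 genes counted in the study, and 32 had enough fragments to be tested. LNCaP is a human line of prostate cancer, established from a lymph node, whose growth responds to androgen, and CPI-455 is an inhibitor of the KDM5 enzymes, which remove methyl groups from histone H3. RNA was sequenced from 4 samples. All 4 were grown without phenol red in RPMI-1640 with 10% hormone-depleted serum, 2 mM glutamine and 1 mM pyruvate, and all 4 received the synthetic androgen R1881 at 1 nM for 72 h. The vehicle group (n = 2) received R1881 with the DMSO vehicle, and the CPI-455 group (n = 2) received R1881 with 50 µM CPI-455. There was no sample without androgen, so the values below compare CPI-455 with vehicle in the presence of R1881 in 1 cell line at 1 dose and 1 time.

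The TCA cycle oxidises the acetyl group of acetyl-CoA in mitochondria. Pyruvate enters as acetyl-CoA through the pyruvate dehydrogenase complex or as oxaloacetate through pyruvate carboxylase, and glutamine enters as 2-oxoglutarate after it has been converted to glutamate. Secretory cells of the normal prostate are known for making and releasing citrate in place of oxidising it, while prostate cancer cells are known to oxidise more of it. The pyruvate, 2-oxoglutarate and NAD-dependent isocitrate dehydrogenases are assembled from several different proteins, so the relative levels of their transcripts were also compared.

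The vehicle libraries held 19623553 and 20690819 counted fragments and the CPI-455 libraries 9522920 and 5401588. Values are given as CPM, the number of fragments scaled to library size after TMM normalization, where 3 fragments correspond to at most 0.142 CPM with vehicle and 0.595 CPM with CPI-455. The study's methods call the samples biological replicates, but the labels do not say whether they were separate cultures, so the tests measure the spread between these samples, which may be technical. The 9 markers of androgen receptor-positive luminal cells were detected in every library, with a summed level of 878 and 812 TPM (library-scaled values that also account for gene length) with vehicle and 249 and 301 TPM with CPI-455. The 12 markers of basal, leukocyte, fibroblast and endothelial cells summed to between 3.20 and 5.68 TPM in all libraries, of which KRT5 was at 0 in every library and COL1A1 was the most abundant. Protein genes of the mitochondrial genome took 1.84% and 1.41% of the vehicle libraries and 0.0948% and 0.0791% of the CPI-455 libraries, and MALAT1, a nuclear non-coding RNA, took 0.114% and 0.0884% of the vehicle and 4.95% and 6.49% of the CPI-455 libraries. These shares move with the groups in every comparison below, and their part in the results was not tested. Fewer cells of a type and less RNA per cell cannot be told apart in such samples.

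CPI-455 treatment changed parts of this pathway in opposite directions. A gene was called when its FDR was below 0.05 in edgeR's quasi-likelihood test, adjusted over all genes, and its expression differed at least 2-fold. By this definition 3 members rose (D2HGDH, OGDHL and PDHA1) and 9 fell (PDP1, DLAT, IDH1, IDH3A, DLD, SLC1A5, OGDH, GLUD1 and GOT2). These 12 are 37.5% of the members tested, against 42.4% of all 17600 genes tested and 40% of the 13813 protein-coding ones, so the members were not called more often than other genes. Of the members, 9.38% were called higher and 28.1% lower, beside 21% and 21.3% of all genes and 15.6% and 24.4% of protein-coding genes, and the difference between these shares was not tested. The median log2 fold change of the members (CPI-455 over vehicle) was -0.18 with an interquartile range of -1.08 to 0.66, beside medians of -0.04 over all genes and -0.21 over protein-coding genes. A further 9 members with an FDR below 0.05 were higher with CPI-455 and 2 were lower by less than 2-fold, and the other 9 did not pass the FDR. An FDR below 0.05 at any fold was found for 62.6% of all genes and 65.1% of protein-coding genes. The CPM ranges of the groups did not overlap for 28 members, in 13 with CPI-455 above vehicle and in 15 with CPI-455 below, beside 81.9% of all genes and 83.2% of protein-coding genes without overlap.

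**Figure D1:**
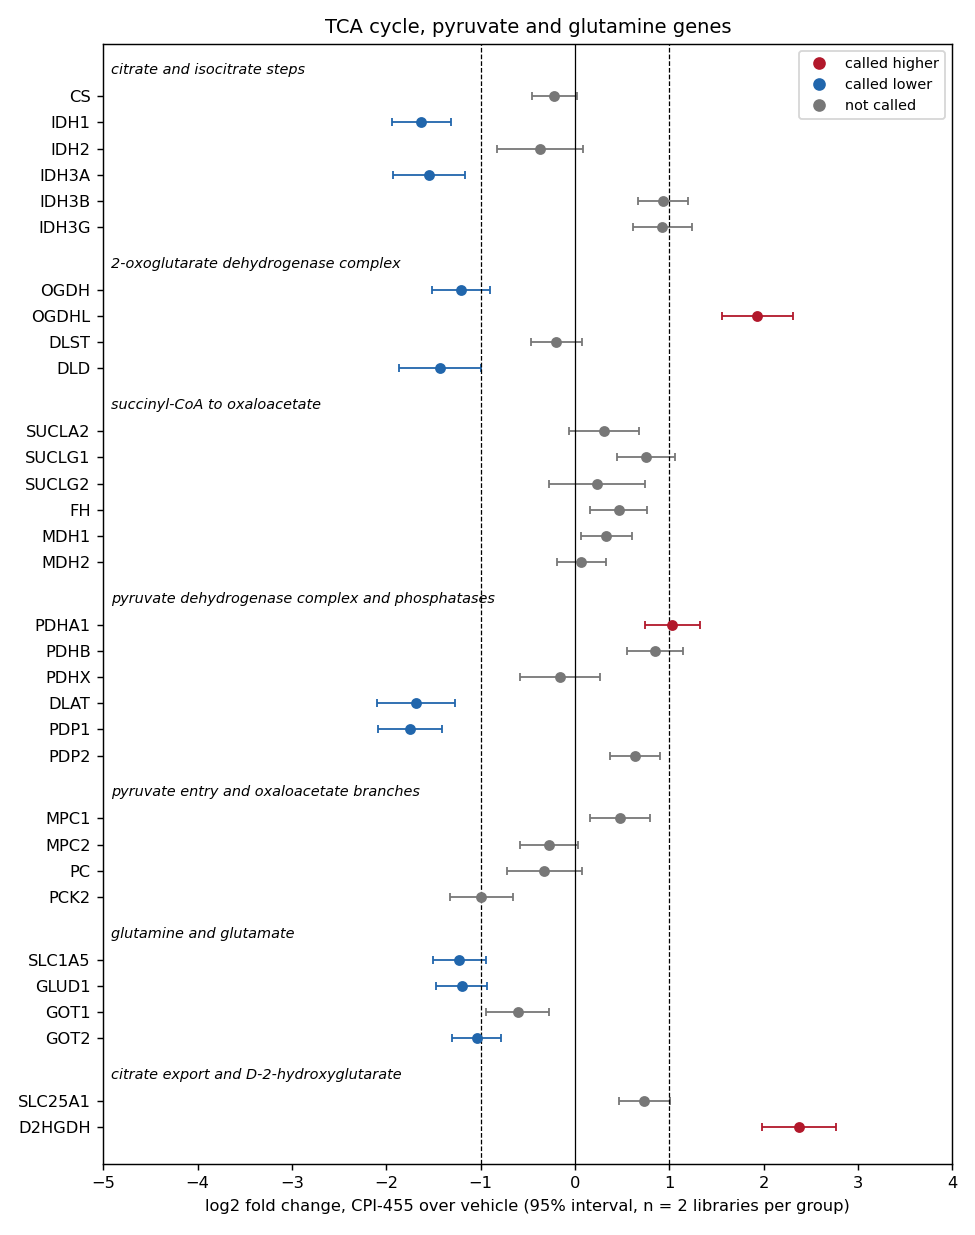
Log2 fold change of the 32 tested members, CPI-455 over vehicle, with 95% intervals from edgeR (n = 2 libraries per group), grouped by role. Dashed lines mark a 2-fold change. Red points rose, blue points fell and grey points were not called, and red and blue points occur within the same enzyme complex, as for PDHA1 and DLAT.

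The promoters of 4 called members are shown because they come from pairs of partner genes that moved apart or from the members that rose the most. The sequences are the 250 bases before the RefSeq start on GRCh38.p14, written 5′ to 3′ on the strand of the gene. Capitals mark every match to GGGCGG, the letters of an SP1 site, or to CCAAT, the core of an NF-Y site, on either strand. PDHA1 lies at chrX:19343677-19343926 on the forward strand, DLAT at chr11:112025158-112025407 on the forward strand, OGDHL at chr10:49762324-49762573 on the reverse strand and D2HGDH at chr2:241734380-241734629 on the forward strand. The gene counted as DLAT starts upstream of this window, at 112024814, so the whole DLAT window lies inside that gene. Bases before its first counted exon were not searched.
PDHA1: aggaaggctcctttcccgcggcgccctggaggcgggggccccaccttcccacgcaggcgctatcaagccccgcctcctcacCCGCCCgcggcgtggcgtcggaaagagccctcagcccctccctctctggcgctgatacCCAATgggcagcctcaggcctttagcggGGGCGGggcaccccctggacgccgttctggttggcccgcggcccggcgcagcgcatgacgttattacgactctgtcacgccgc
DLAT: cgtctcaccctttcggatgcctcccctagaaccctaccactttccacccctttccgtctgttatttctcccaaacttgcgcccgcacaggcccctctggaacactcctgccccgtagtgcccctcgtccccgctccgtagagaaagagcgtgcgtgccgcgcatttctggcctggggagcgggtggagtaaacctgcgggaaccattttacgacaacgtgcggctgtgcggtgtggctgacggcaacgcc
OGDHL: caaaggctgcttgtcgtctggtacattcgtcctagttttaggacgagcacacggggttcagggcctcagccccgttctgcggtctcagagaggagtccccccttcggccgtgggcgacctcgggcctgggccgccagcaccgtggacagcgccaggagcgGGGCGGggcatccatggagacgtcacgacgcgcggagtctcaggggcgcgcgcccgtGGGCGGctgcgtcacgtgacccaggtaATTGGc
D2HGDH: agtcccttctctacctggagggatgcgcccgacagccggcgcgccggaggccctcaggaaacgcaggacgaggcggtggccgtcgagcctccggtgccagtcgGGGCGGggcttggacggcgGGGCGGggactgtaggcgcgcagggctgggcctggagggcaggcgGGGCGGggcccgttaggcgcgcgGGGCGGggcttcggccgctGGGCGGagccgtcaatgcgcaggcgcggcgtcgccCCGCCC
The promoter of DLAT held 0 matches, those of PDHA1 and OGDHL each held 2 to GGGCGG and 1 to CCAAT, and that of D2HGDH held 6 to GGGCGG. No 2 matches shared a base.

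RefSeq promoters of 300 bases, from 250 before to 50 after the start, were matched by symbol for 31 of the 33 members, all but OGDH and PDP1. They were rich in CpG, with a median of 25 CpG dinucleotides beside 14 in all 27305 promoters. GGGCGG was present on either strand in 23 of the 31 (74.2%) and in 44.6% of all promoters. CCAAT was present in 19 of the 31 (61.3%) and in 35.7% of all. Among members with a promoter, CCAAT was found in 2 of the 3 that rose, 2 of the 7 that fell and 15 of the 20 that were not called, while GGGCGG was found in all 3, in 5 of 7 and in 14 of 20. The half-site of the androgen response element, AGAACA, was found in SUCLA2 and PC only, or 6.45% of the member promoters, beside 14.9% of all promoters. CCGGAAGT (ETS factors) was found in IDH3B, DLST and MDH2, AAGATGGC (YY1) in SUCLG2 and PDHB, GCGCATGC (NRF1) in GLS2 and TTGCATCA (ATF4) in GOT1. Over all promoters these 4 were found in 4.44%, 3.03%, 3.27% and 0.923%. TCAAGGTCA (ERR) and TGACGTCA (CRE) had 0 matches among the members and were found in 0.359% and 1.98% of all promoters. With shares this low, few matches or 0 are expected among 31 promoters. These letter matches describe the windows searched and do not show binding.

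The pyruvate dehydrogenase complex converts pyruvate to acetyl-CoA, and its subunits did not move together. PDHA1, on chromosome X from 19343893 to 19361705, encodes the alpha subunit of its first enzyme, E1. Its level was 76.0 and 88.4 CPM with vehicle and 158 and 179 CPM with CPI-455. Both CPI-455 samples were above both vehicle samples, with a log2 fold change of 1.03 (SE 0.13, FDR = 0.000103). PDHB, which encodes the beta subunit of E1, was measured at 40.0 and 38.3 CPM with vehicle and 68.1 and 73.2 CPM with CPI-455, a 1.80-fold difference (FDR = 0.000456) that is under the 2-fold limit. DLAT, on chromosome 11 from 112024814 to 112064390, encodes the E2 acetyltransferase that forms the core of the complex. It fell from 79.5 and 92.1 CPM with vehicle to 22.4 and 31.9 CPM with CPI-455. Its log2 fold change was -1.69 (SE 0.18, FDR = 4.51e-05), so the E1 and E2 transcripts moved in opposite directions. PDHX, the protein that anchors the E3 enzyme to the core, was between 30.5 and 43.8 CPM in all 4 libraries and its groups overlapped, with a log2 fold change of -0.16 (95% interval -0.58 to 0.27, FDR = 0.491).

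DLD is the E3 enzyme that the pyruvate and 2-oxoglutarate dehydrogenase complexes share, and it lies on chromosome 7 from 107890970 to 107931730. It was 77.4 and 74.5 CPM with vehicle and 22.6 and 34.9 CPM with CPI-455. DLD fell 2.69-fold (95% interval 1.99 to 3.65, FDR = 0.000178), although the CPI-455 samples differed more from each other than the vehicle samples did.

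The phosphatases that remove the inhibitory phosphate from E1 also separated. PDP1, which encodes the calcium-stimulated phosphatase, was 101 and 91.3 CPM with vehicle and 26.0 and 31.7 CPM with CPI-455. This was the largest fall of any member, 3.36-fold (95% interval 2.65 to 4.26, FDR = 1.15e-05). PDP2, its second catalytic form, was 66.9 CPM in both vehicle samples and 101 and 107 CPM with CPI-455, or 1.56-fold higher (FDR = 0.00126) and not called. Within a library the ratio of PDP1 to PDP2, in TPM, was 2.25 and 2.04 in the vehicle libraries and 0.383 and 0.442 in the CPI-455 libraries, so the more abundant form was PDP1 with vehicle and PDP2 with CPI-455.

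**Figure D2:**
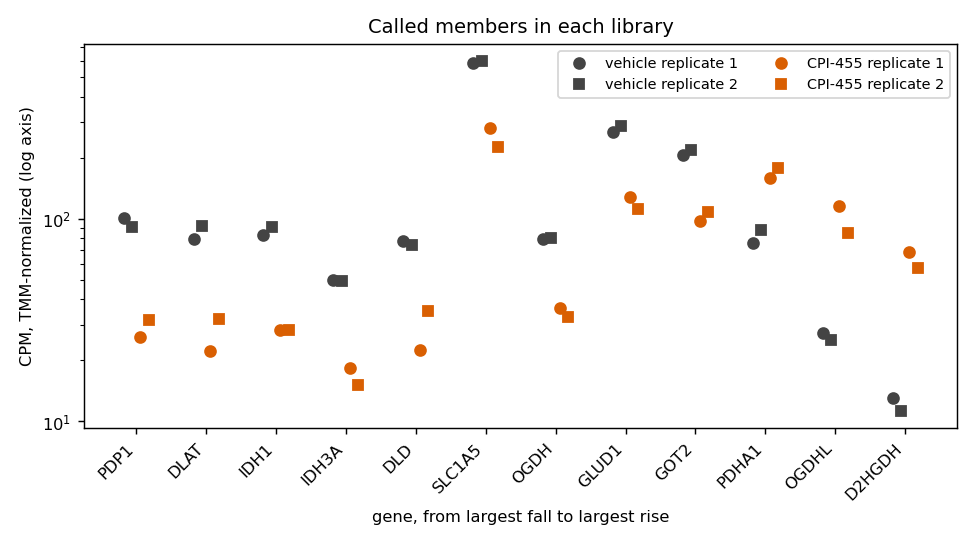
CPM (log axis, TMM-normalized) of the 12 called members in each of the 4 libraries, ordered from the largest fall to the largest rise. Circles are replicate 1 and squares replicate 2 of vehicle (grey) and CPI-455 (orange), and for each gene both CPI-455 points lie on the same side of both vehicle points. The same was found for 81.9% of all genes tested.

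Of the other genes listed for pyruvate use, 10 of 14 were tested, 0 rose and 3 fell in edgeR's test. The called genes are 30% of the 10, beside 42.4% of all genes tested. At an FDR below 0.05 and any fold, and also at an unadjusted p below 0.05, 1 of the 10 was higher and 4 were lower, and DESeq2 called 0 higher and 3 lower. The 3 that fell act on the phosphorylation of E1. PDK2 and PDK4 encode kinases that inactivate the complex, and PDPR encodes the regulatory subunit of the PDP1 phosphatase. PDK4 was 4.07 and 4.40 CPM with vehicle and 0.562 and 1.19 CPM with CPI-455 (log2 fold change -2.37, SE 0.54, FDR = 0.00392). PDK2 was 17.2 and 21.7 CPM with vehicle and 9.22 and 5.75 CPM with CPI-455 (log2 fold change -1.33, SE 0.27, FDR = 0.00222). PDPR was 78.7 and 77.2 CPM with vehicle and 40.5 and 29.5 CPM with CPI-455 (log2 fold change -1.14, SE 0.16, FDR = 0.000272). When the dependence of counts on length and GC content was removed, PDPR was at -0.82, under the 2-fold limit. For each of the 3 genes, named because they were called, the groups did not overlap, as for 81.9% of all genes tested. PDK2 shares 38.6% of its exon bases with SAMD14 and PDPR 19.6% with another gene, and fragments on those bases were not counted. The other kinases of the list, named here after their values were seen, were not called. PDK1, the most abundant of them in CPM, was 49.5 and 50.1 CPM with vehicle and 36.9 and 49.2 CPM with CPI-455 (FDR = 0.261). PDK3 was 8.52 and 9.02 CPM with vehicle and 11.8 and 9.12 CPM with CPI-455 (log2 fold change 0.27, FDR = 0.386).

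Entry of pyruvate into mitochondria and its branches to oxaloacetate contained 0 called members in edgeR and 0 in DESeq2, with 1 higher and 1 lower of 4 at an unadjusted p below 0.05. Over all genes tested, 42.4% were called in edgeR. MPC1 and MPC2 form the mitochondrial pyruvate carrier. MPC1 was 33.5 and 33.7 CPM with vehicle and 46.8 and 47.0 CPM with CPI-455 (log2 fold change 0.48, FDR = 0.0150). MPC2 was 51.1 and 52.7 CPM with vehicle and 42.8 CPM in both CPI-455 samples (log2 fold change -0.28, 95% interval -0.58 to 0.03, FDR = 0.105). PC, the carboxylase that makes oxaloacetate from pyruvate, was at a mean of 24.9 CPM with vehicle and was 19.3 and 20.6 CPM with CPI-455, and its FDR of 0.137 did not pass. PCK2, which converts oxaloacetate to phosphoenolpyruvate in mitochondria, was just short of the 2-fold limit. It was 70.9 and 77.4 CPM with vehicle and 40.5 and 33.5 CPM with CPI-455, a log2 fold change of -0.99 (SE 0.15, FDR = 0.000335).

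Citrate and isocitrate steps held 2 of the genes that fell and 0 that rose in edgeR or DESeq2, while 2 of the 6 were higher at an unadjusted p below 0.05. The 2 called in edgeR are 33.3% of the 6, beside 42.4% of all genes tested. CS, the citrate synthase that starts the cycle, was 254 and 250 CPM with vehicle and 216 and 217 CPM with CPI-455 (log2 fold change -0.22, 95% interval -0.46 to 0.02, FDR = 0.0967). IDH1, the cytosolic NADP-dependent isocitrate dehydrogenase, lies on chromosome 2 from 208236227 to 208266074. It was 83.5 and 91.3 CPM with vehicle and 28.3 and 28.2 CPM with CPI-455. IDH1 fell 3.09-fold (95% interval 2.49 to 3.84, FDR = 1.05e-05). Its mitochondrial counterpart IDH2 was 35.8 and 51.7 CPM with vehicle and 36.5 and 30.5 CPM with CPI-455, so the groups overlapped (FDR = 0.135). In TPM within a library, IDH1 was 1.39 and 1.05 times IDH2 with vehicle and 0.462 and 0.550 times IDH2 with CPI-455.

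The 3 subunits of the NAD-dependent isocitrate dehydrogenase differed more. IDH3A encodes the catalytic alpha subunit and lies on chromosome 15 from 78131498 to 78171949. It was 49.7 and 49.2 CPM with vehicle and 18.4 and 15.1 CPM with CPI-455, a log2 fold change of -1.54 (SE 0.17, FDR = 4.55e-05). Of its exon bases, 38.9% also belong to ACSBG1 or CIB2, and fragments on those bases were not counted. IDH3B and IDH3G, its beta and gamma partners, were higher with CPI-455 by a little less than 2-fold. IDH3B was 65.9 and 72.3 CPM with vehicle and 133 and 131 CPM with CPI-455 (log2 fold change 0.94, FDR = 0.000115). IDH3G was 51.6 and 54.5 CPM with vehicle and 110 and 90.6 CPM with CPI-455 (log2 fold change 0.93, FDR = 0.000320). IDH3B and IDH3G thus kept a like ratio to each other, 1.35 and 1.40 in the vehicle libraries and 1.28 and 1.54 in the CPI-455 libraries in TPM, while the ratio of IDH3A to IDH3B was 0.283 and 0.255 in the vehicle libraries and 0.0521 and 0.0431 in the CPI-455 libraries.

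The 2-oxoglutarate dehydrogenase complex converts 2-oxoglutarate to succinyl-CoA, and its alternative E1 genes exchanged their order. OGDH, the widely expressed E1 enzyme, lies on chromosome 7 from 44606572 to 44709066. It fell from 79.4 and 80.7 CPM with vehicle to 36.2 and 32.9 CPM with CPI-455, or 2.31-fold (95% interval 1.86 to 2.85, FDR = 5.55e-05). OGDHL, a related E1 enzyme best known from brain, lies on chromosome 10 from 49734643 to 49762379. It rose from 27.4 and 25.1 CPM with vehicle to 115 and 84.7 CPM with CPI-455, or 3.82-fold (95% interval 2.94 to 4.98, FDR = 1.19e-05). In TPM, OGDHL was 0.314 and 0.284 times OGDH with vehicle and 2.89 and 2.34 times OGDH with CPI-455, which is an 8.72-fold change of the ratio. Neither gene shares exon bases with another gene. DLST, the E2 core enzyme of this complex, was 116 CPM in both vehicle samples and 94.5 and 109 CPM with CPI-455, and was not called (log2 fold change -0.20, 95% interval -0.47 to 0.08, FDR = 0.187).

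Ratios between partner genes do not depend on the scaling of a library, and 15 pairs were compared. With 2 libraries against 2, an exact 2-sided permutation test over samples cannot give a p below 0.333, so no pair could pass 0.05. The vehicle and CPI-455 ratios did not overlap in 13 of the 15 pairs, which were chosen with earlier results of these data known, beside the 81.9% of single genes whose CPM did not overlap. That share is for an unlike measure, and none was computed for the ratios of other gene pairs. The largest differences of log2 ratio (CPI-455 minus vehicle) were 3.12 for OGDHL to OGDH, -2.72 for DLAT to PDHA1, -2.51 for IDH3A to IDH3B, -2.48 for IDH3A to IDH3G and -2.38 for PDP1 to PDP2. The SD of a log2 ratio between replicates was at most 0.24 in these 5 pairs. Smaller differences were found for PDHX to PDHA1 (-1.20), DLD to DLST (-1.24), OGDH to DLST (-1.02), IDH1 to IDH2 (-1.26) and MPC1 to MPC2 (0.76). The ratio of IDH3B to IDH3G (0.02) and that of SUCLA2 to SUCLG2 (0.08) overlapped between the groups.

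**Figure D3:**
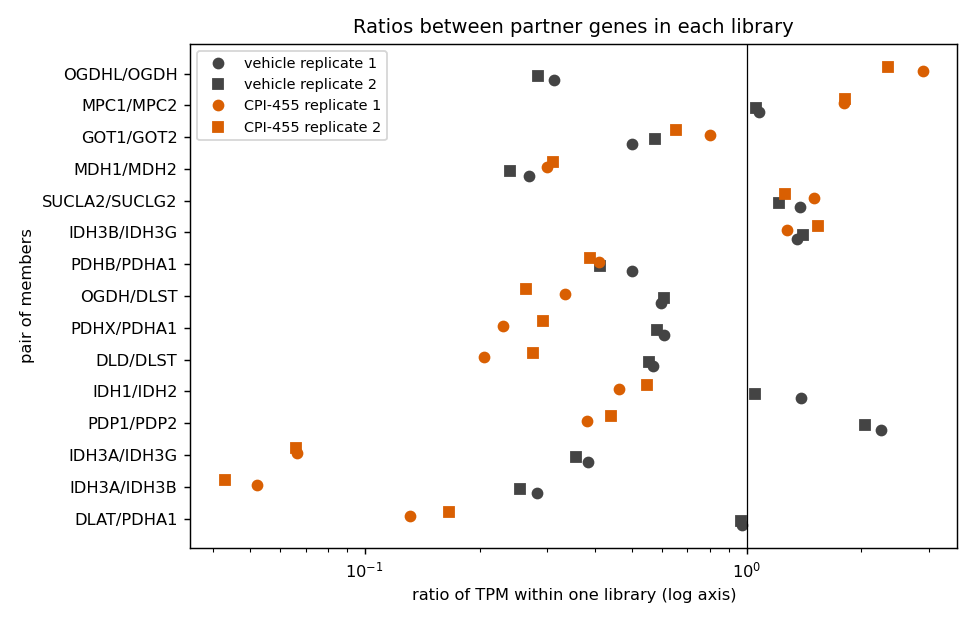
Ratio of TPM between 15 pairs of members within each library (log axis), ordered by the difference between groups. Grey symbols are vehicle and orange symbols CPI-455, circles are replicate 1 and squares replicate 2, and the line marks equal levels. OGDHL/OGDH moves from 0.314 and 0.284 to 2.89 and 2.34, while IDH3B/IDH3G stays between 1.28 and 1.54.

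The steps from succinyl-CoA to oxaloacetate had 6 members and 0 calls in edgeR or DESeq2, with 3 higher and 0 lower at an unadjusted p below 0.05. Over all genes tested, 42.4% were called in edgeR. SUCLA2, SUCLG1 and SUCLG2 encode succinate-CoA ligase, where SUCLG1 is the subunit common to its ATP- and GTP-specific forms. SUCLG1 was 52.8 and 61.8 CPM with vehicle and 91.2 and 102 CPM with CPI-455 (1.68-fold, FDR = 0.00111). SUCLA2 was 46.3 and 48.4 CPM with vehicle and 50.4 and 68.0 CPM with CPI-455 (FDR = 0.130), and SUCLG2 overlapped between groups (log2 fold change 0.23, 95% interval -0.27 to 0.74, FDR = 0.392). FH, the fumarase, was 41.0 and 44.3 CPM with vehicle and 58.7 and 58.9 CPM with CPI-455 (1.38-fold, FDR = 0.0144). MDH1, the cytosolic malate dehydrogenase, was 78.4 and 80.0 CPM with vehicle and 95.8 and 104 CPM with CPI-455 (1.26-fold, FDR = 0.0347). In CPM, SUCLG1, FH and MDH1, the 3 genes with an FDR below 0.05, were all higher with CPI-455 and all under 2-fold. MDH2, the mitochondrial enzyme, was between 212 and 244 CPM in all 4 libraries, with a log2 fold change of 0.07 (95% interval -0.19 to 0.33, FDR = 0.639).

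Among 13 other genes of the cycle, all of them tested, 2 rose and 2 fell (3 and 2 with DESeq2), and 5 were higher and 3 lower at an FDR below 0.05 and any fold. Genes called in edgeR were 30.8% of the 13, beside 42.4% of all genes tested. SDHAF4 and SDHAF2, assembly factors of succinate dehydrogenase, moved in opposite directions. SDHAF4 was 13.1 and 12.4 CPM with vehicle and 42.2 and 57.5 CPM with CPI-455 (log2 fold change 1.96, SE 0.19, FDR = 2.43e-05). SDHAF2 was 7.86 and 8.24 CPM with vehicle and 3.04 and 1.59 CPM with CPI-455 (log2 fold change -1.72, SE 0.38, FDR = 0.00315), and 30.5% of its exon bases are shared with other genes. MRPS36, known as a subunit that links E3 to the 2-oxoglutarate dehydrogenase core, rose from 15.5 and 16.1 CPM with vehicle to 46.9 and 55.7 CPM with CPI-455 (log2 fold change 1.69, SE 0.17, FDR = 2.32e-05). ACO1, the cytosolic aconitase, fell from 57.5 and 56.4 CPM with vehicle to 21.6 and 25.4 CPM with CPI-455 (log2 fold change -1.29, SE 0.16, FDR = 8.61e-05). When the dependence of counts on length and GC content was removed, ACO1 was at -0.86, under the 2-fold limit. For each of these 4 genes both CPI-455 samples lay outside the range of the vehicle samples, as for 81.9% of all genes tested. They were named because they were called, so this adds no separate support.

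Members of glutamine and glutamate metabolism were lower with CPI-455. Of the 4 tested, 3 fell and 0 rose in edgeR and in DESeq2, and 4 were lower and 0 higher at an FDR below 0.05 or an unadjusted p below 0.05 and any fold. Over all genes 21.3% were called lower in edgeR (24.4% of protein-coding genes). An FDR below 0.05 in either direction was found for 62.6% of all genes (65.1% of protein-coding genes). The difference from these shares was not tested. SLC1A5, the plasma membrane carrier of glutamine and other neutral amino acids, lies on chromosome 19 from 46774883 to 46788594. It had the highest TPM of the 33 members in both groups, 750 and 766 TPM with vehicle and 276 and 232 TPM with CPI-455. In CPM it was 589 and 597 in the vehicle libraries and 280 and 226 in the CPI-455 libraries, a 2.34-fold fall (95% interval 1.92 to 2.84, FDR = 3.04e-05). GLUD1, the mitochondrial glutamate dehydrogenase that makes 2-oxoglutarate, lies on chromosome 10 from 87050486 to 87094866. It fell 2.30-fold (95% interval 1.91 to 2.77, FDR = 2.42e-05), from 267 and 285 CPM with vehicle to 128 and 112 CPM with CPI-455. GOT2, the mitochondrial aspartate aminotransferase, on chromosome 16 from 58707131 to 58734357, fell from 206 and 217 CPM with vehicle to 97.9 and 108 CPM with CPI-455, a log2 fold change of -1.04 (SE 0.12, FDR = 5.19e-05). Its cytosolic counterpart GOT1 was 66.6 and 80.4 CPM with vehicle and 50.6 and 45.6 CPM with CPI-455 (1.52-fold lower, FDR = 0.00579) and was not called.

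GLS2, the liver-type glutaminase, was near the detection limit in these cells. It had 13 and 4 fragments with vehicle and 4 and 2 with CPI-455, was not tested, and shares 77.1% of its exon bases with SPRYD4. SLC1A5 shares 23.8% of its exon bases with other genes and GLUD1 13.2%. GLUD1 and GOT2 also have 4 and 6 annotated pseudogenes, and fragments that match several places were left out of the counts.

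As a share of the summed TPM of all 33 members, the glutamine and glutamate genes took 41.0% and 40.7% in the vehicle libraries and 23.1% and 20.6% in the CPI-455 libraries. Succinyl-CoA to oxaloacetate genes took 15.4% and 16.3% in the vehicle libraries and 21.2% and 23.7% in the CPI-455 libraries. Their summed level overlapped between the groups, at 534 and 599 TPM with vehicle and 502 and 582 TPM with CPI-455. Pyruvate dehydrogenase genes and phosphatases together took 9.56% and 9.59% in the vehicle libraries and 10.9% and 12.8% in the CPI-455 libraries, although their members moved in both directions. Their sum was lower with CPI-455, at 332 and 353 TPM with vehicle and 260 and 315 TPM with CPI-455. The sum of all 33 members, against which the shares are taken, was 3468 and 3686 TPM with vehicle and 2373 and 2452 TPM with CPI-455. The makeup of the pathway's transcripts therefore differed between groups by more than it did between replicates for the glutamine genes, and no test of these shares was made.

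Of 19 further genes of glutamine and glutamate metabolism, all tested, 4 rose and 9 fell (3 and 9 with DESeq2), and 5 were higher and 11 lower at an FDR below 0.05 and any fold. Genes called in edgeR were 68.4% of the 19, beside 42.4% of all genes tested, and this difference was not tested. SLC38A1, a sodium-coupled glutamine transporter, fell from 782 and 836 CPM with vehicle to 139 and 138 CPM with CPI-455 (log2 fold change -2.55, SE 0.11, FDR = 5.83e-07). SLC7A5, which exchanges glutamine for other large neutral amino acids, fell from 935 and 877 CPM with vehicle to 249 and 193 CPM with CPI-455 (log2 fold change -2.03, SE 0.14, FDR = 2.95e-06). ALDH18A1, which turns glutamate towards proline, fell from 230 and 237 CPM with vehicle to 65.9 and 54.9 CPM with CPI-455 (log2 fold change -1.94, SE 0.13, FDR = 2.70e-06). These 3 genes are abundant, and in each the groups were far apart relative to the spread of the replicates. SLC38A5, another glutamine transporter, rose from 0.757 and 0.549 CPM with vehicle to 3.04 and 2.18 CPM with CPI-455 (log2 fold change 2.00, SE 0.61, FDR = 0.0177), at a level near the detection limit. More abundant genes of the list also rose, of which ASNS and CAD are named here after their values were seen. ASNS, the asparagine synthetase that takes nitrogen from glutamine, rose from 220 and 255 CPM with vehicle to 578 and 613 CPM with CPI-455 (log2 fold change 1.33, SE 0.12, FDR = 1.20e-05). CAD, the enzyme that uses glutamine in the first steps of pyrimidine synthesis, rose from 223 and 222 CPM with vehicle to 503 and 436 CPM with CPI-455 (log2 fold change 1.08, SE 0.11, FDR = 3.69e-05). GLUD2, a retrotransposed copy of GLUD1, was called lower (FDR = 0.00213) with 48 and 49 fragments with vehicle and 1 and 0 with CPI-455, and as a near-identical copy it is measured less surely than GLUD1.

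**Figure D4:**
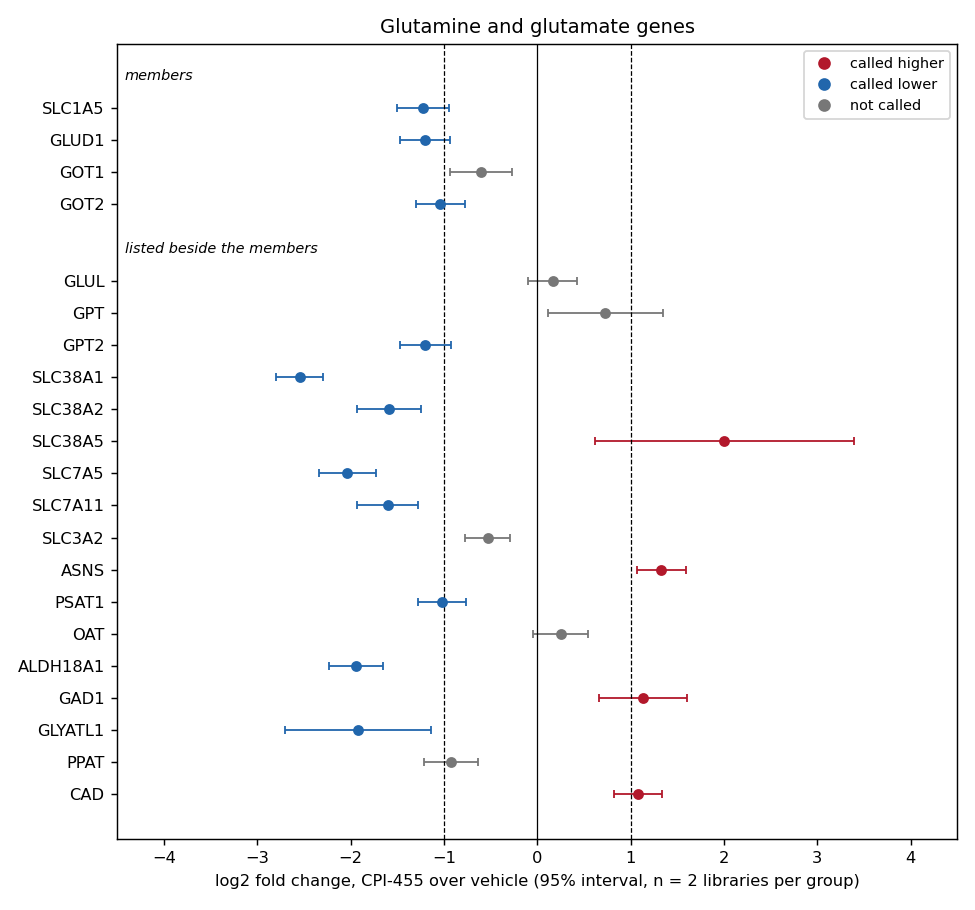
Log2 fold change (CPI-455 over vehicle) with 95% intervals from edgeR of 4 members of glutamine and glutamate metabolism and 17 of the 19 further genes of that list (n = 2 libraries per group). Dashed lines mark a 2-fold change, red points rose and blue points fell. GLUD2, with 1 and 0 fragments with CPI-455, is not among the genes shown.

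Citrate export and D-2-hydroxyglutarate removal were represented by SLC25A1 and D2HGDH. D2HGDH, on chromosome 2 from 241734579 to 241768816, encodes the mitochondrial enzyme that oxidises D-2-hydroxyglutarate back to 2-oxoglutarate. It was 13.0 and 11.3 CPM with vehicle and 68.6 and 56.9 CPM with CPI-455. This was the largest rise of any member, 5.19-fold (95% interval 3.96 to 6.80, FDR = 4.36e-06), from the rank of 32 to that of 22 among the 33 members in mean TPM. Other genes share 18.5% of its exon bases. SLC25A1, the mitochondrial citrate carrier, was 64.3 and 61.5 CPM with vehicle and 107 and 102 CPM with CPI-455 (1.66-fold, FDR = 0.000555) and was not called, although its groups did not overlap. Of 11 further carriers and enzymes of citrate and 2-hydroxyglutarate, all tested, SLC25A12 rose and 0 fell in edgeR and in DESeq2, and 2 were higher and 2 lower at an FDR or an unadjusted p below 0.05 and any fold. The 1 gene called in edgeR is 9.09% of the 11, beside 42.4% of all genes tested. SLC25A12 exchanges aspartate for glutamate across the inner mitochondrial membrane, and it went from 19.1 and 16.6 CPM with vehicle to 44.3 and 47.8 CPM with CPI-455 (log2 fold change 1.36, SE 0.16, FDR = 8.50e-05). Over the 4 lists of further genes, 53 of 57 were tested, of which 7 rose (13.2%) and 14 fell (26.4%), or 39.6% called beside 42.4% of all genes and 40% of protein-coding genes.

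Several calls lay close to the 2-fold limit or depended on how length and GC content were treated. Among the called members, PDHA1 (log2 fold change 1.03) and GOT2 (-1.04) were the nearest to the limit, and among the others PCK2 (-0.99), IDH3B (0.94) and IDH3G (0.93). Without vehicle replicate 1 the log2 fold change of PDHA1 was 0.95, and without CPI-455 replicate 2 it was also 0.95, so its call was lost in both. GOT2 lost its call without vehicle replicate 2 (-0.99) and without CPI-455 replicate 1 (-0.97). PCK2 was called lower without vehicle replicate 1 (-1.04) and without CPI-455 replicate 1 (-1.15), IDH3B was called higher without vehicle replicate 2 (1.02) and IDH3G without CPI-455 replicate 2 (1.05). PDHA1 shares 21.3% of its exon bases with MAP3K15.

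Genes that fell had a median exon GC content of 44.7% and those that rose 58.9%, with 47.1% in the members not called. Across the 32 tested members the log2 fold change had a Pearson r of 0.30 and a Spearman rho of 0.20 with GC content, and -0.11 and -0.19 with exon length, where members share libraries and are not replicates. When the dependence of counts on length and GC content was removed from each library, 6 members were called higher and 7 lower in place of 3 and 9. PDHB (log2 fold change 1.21), SUCLG1 (1.17) and PDP2 (1.05) were then called higher and PCK2 (-1.05) lower, while DLD (-0.94), GLUD1 (-0.97) and GOT2 (-0.82) were no longer called. IDH3A moved from -1.54 to -1.06 and remained called. The values of OGDHL (1.94) and D2HGDH (2.34) hardly moved, and the differences of log2 ratio were then 3.10 for OGDHL to OGDH, -2.63 for DLAT to PDHA1, -1.79 for IDH3A to IDH3B and -2.33 for PDP1 to PDP2. Upper-quartile normalization gave 6 members higher and 8 lower, and shifted the median of all genes from -0.04 to 0.14.

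**Figure D5:**
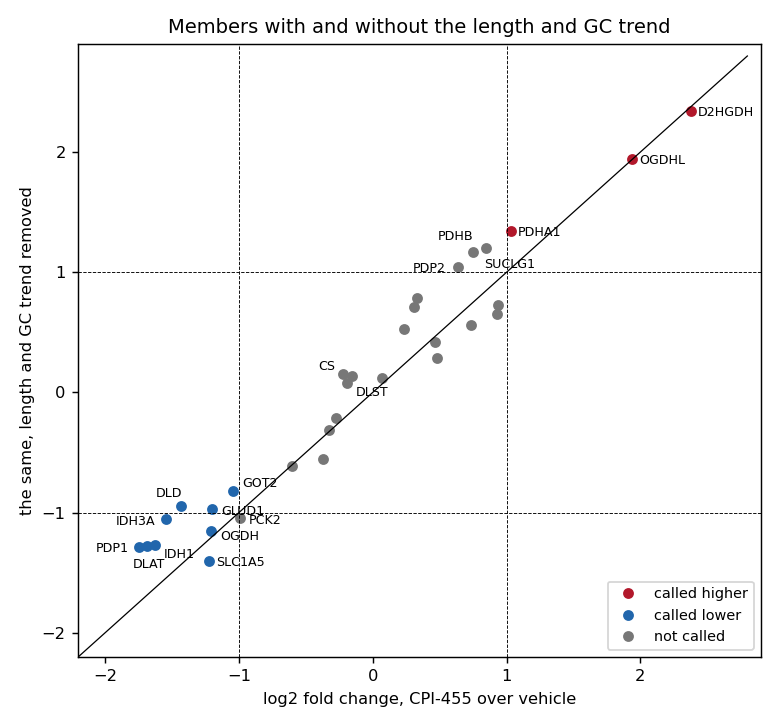
Log2 fold change of the 32 tested members (CPI-455 over vehicle) as fitted (x axis) and after removal of the dependence on exon length and GC content (y axis). The solid line marks equal values and dashed lines a 2-fold change, and colours give the calls without the correction. PDHB, SUCLG1 and PDP2 pass the 2-fold limit only on the y axis and DLD, GLUD1 and GOT2 only on the x axis, while OGDHL and D2HGDH lie close to the solid line.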

How the data were processed

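RNA was extracted with a Qiagen RNeasy kit; how RNA was selected and whether libraries were stranded is not given in the sources used here. The authors trimmed reads (Trim Galore), aligned them with STAR (GRCh38) and made the deposited raw counts of fragments on exons with featureCounts 1.5.0-p1 (Ensembl 83), without normalization. Strand was not used and fragments matching several places or genes were left out, per the file headers. The labels give DMSO below 0.01% and the methods give another value.

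Libraries were normalized with TMM, genes filtered with filterByExpr (minimum 10 counts, 17600 kept) and groups compared with glmQLFTest in edgeR 4.0.16 (R 4.3.3), without covariates, with Benjamini-Hochberg adjustment (FDR) over all tested genes. Genes were called at an FDR below 0.05 and a 2-fold change. Log2 fold changes are CPI-455 over vehicle, the reverse of the sign used in the study. TPM, from the counts and the deposited gene lengths, was used for ratios, ranks and shares of genes within a library. It was also used for sums of markers and of members and for levels of SLC1A5 and MDH1, which were not tested in TPM. All members are named in the text, and of the further pathway genes the called ones, at most 5 per list by size of change. One gene of these lists is not reported here, although it is included in the counts. The members, lists, ratios and motifs were chosen with earlier results of these data known. Gene types are from GENCODE 44 and promoters from RefSeq (GRCh38.p14). Symbols matched 56558 of 60675 genes.

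On simulated counts for this comparison, 77% of 200 genes among 17600 changed by a log2 fold change of 1.5 were called, with 4 other genes. In the data 42.4% of the genes tested were called. How normalization and calling perform with a share that large was not tested. Samples with the same replicate number did not deviate together (r = 0.04, with pairing taken at over 0.1), so the main comparison was unpaired. The 17 alternatives covered normalization (RLE, upper quartile, library totals, TMM without mitochondrial genes and MALAT1), the filter, DESeq2 1.42.0, the likelihood-ratio test, a stricter FDR, glmTreat, a replicate block, a length and GC trend (mgcv 1.9.3) and leaving out each library. Depth was 5401588 to 20690819 counts per library. Limits of 3 counts cover counting error only, because PCR copies could not be told from separate molecules.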

Additional observations from a re-analysis of the deposited data

How the results depend on the processing

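Of the 12 called members, 6 (D2HGDH, OGDHL, PDP1, DLAT, IDH1 and IDH3A) were called in the same direction in all 17 alternatives. GOT2 lost its call in 7, PDHA1 in 5, GLUD1 in 3, DLD in 2, and OGDH and SLC1A5 in 1 each. Among the uncalled members, PCK2 was called in 6 alternatives, PDHB in 3, and IDH3B, IDH3G, SUCLG1 and PDP2 in 2 each. With 3 members called higher and 9 lower as reported, 6 were called higher with upper-quartile normalization and with the length and GC trend removed, with or without the replicate block, and 5 were called lower with glmTreat against 2-fold. Of the other pathway genes, 11 were called higher with upper-quartile normalization and 4 with glmTreat, in place of 7. Leaving out 1 library at a time gave 2 to 4 members higher, 8 to 10 lower, and medians of the members from -0.24 (without CPI-455 replicate 2) to 0.00201 (without CPI-455 replicate 1). In such fits the lone sample of a group is assumed to vary like the other group.

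The median of the members, -0.18 as reported, was -0.000616 with upper-quartile normalization, -0.37 with library totals only, -0.31 without the filter on low counts, and 0.13 with the length and GC trend removed, with or without the block. Scaling moved the median of all genes as well, from -0.04 to 0.14 with upper quartiles and -0.23 with library totals. The sign changed for 5 uncalled members. CS was 0.15, DLST 0.079 and PDHX 0.14 with the length and GC trend removed, and 0.15, 0.078 and 0.14 with the replicate block as well. PDHX was 0.018 with upper quartiles and MDH2 was -0.12 with library totals and -0.088 without the filter. Leaving out 1 library gave -0.43 (without CPI-455 replicate 2) to 0.10 (without CPI-455 replicate 1) for PDHX, -0.13 (without CPI-455 replicate 2) to 0.56 (without CPI-455 replicate 1) for SUCLG2, and -0.00417 (without vehicle replicate 1) to 0.18 (without vehicle replicate 2) for MDH2. The cause was not tested.

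The replicate numbers of the labels do not state a pairing. With the replicate block, 3 members were called higher and 9 lower, with a median of -0.18, and of the other pathway genes 6 were called higher and 14 lower. Few fragments limit GLUD2 and PDK4 in the CPI-455 libraries, and GLS2 and SLC38A5 in the libraries of both groups.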
